A study of Homo sapiens with 10 samples.

Results

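The input library is chromatin that was sonicated and sequenced without an antibody, and every peak of its deposited list was taken, 2676 of the 332957 peaks in the 10 unmasked lists of the series. No measured value was used to choose them. The study followed CTCF and 3 histone marks in HEK-293T cells, an established line of human embryonic kidney origin, at different levels of CGGBP1, a protein that binds CGG-rich DNA. CTCF was immunoprecipitated from cells transduced with lentivirus for a non-targeting shRNA (CT), for an shRNA that silences CGGBP1 (KD) or for CGGBP1 overexpression (OE), while H3K4me3, H3K9me3 and H3K27me3 were immunoprecipitated from CT and KD. Puromycin selection was applied to the cells that carried an shRNA, and which of these cells gave the input is not given in the sources used here. There was 1 library per group, so the values below carry no replicate error and no p-value. The bracketed intervals are 95% Clopper-Pearson intervals, which cover counting error only and treat neighbouring peaks as independent.

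Sequencing of input chromatin measures how much DNA of each place enters a library before any antibody is used, and it serves as the background against which immunoprecipitated chromatin is read. Centromeres of human chromosomes are built from alphoid DNA, tandem monomers that are themselves arranged in higher-order repeat units particular to each chromosome, and a subset of monomers carries the CENP-B box, the binding site of a centromere protein. L1 elements are the retrotransposons that remain able to copy themselves in the human genome, and the ribosomal RNA genes are kept in long arrays on the short arms of the acrocentric chromosomes.

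The sequences below, read from the hg38 reference, show what several kinds of the peaks consist of. Each is the peak of its kind held by the most ChIP lists, with ties settled by the width nearest to the median of the kind, and stretches longer than 300 bases were shortened around the centre. In the alphoid peaks the capitals mark a CENP-B box, in the 26-bp satellite, one of the short-unit satellites, they mark CATTC or its complement GAATG, and in the 68-bp satellite they mark every second stretch of 68 bases. The rDNA peak and the peak of no repeat group have no capitals.
Alphoid DNA of chromosome 11, chr11:53268689-53268938: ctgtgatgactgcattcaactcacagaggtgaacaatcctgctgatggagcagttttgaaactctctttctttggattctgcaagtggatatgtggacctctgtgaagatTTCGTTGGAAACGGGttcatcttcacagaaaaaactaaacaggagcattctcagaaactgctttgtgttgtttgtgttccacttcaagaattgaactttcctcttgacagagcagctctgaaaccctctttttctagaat
Alphoid DNA of chromosome 18, chr18:17246659-17246905: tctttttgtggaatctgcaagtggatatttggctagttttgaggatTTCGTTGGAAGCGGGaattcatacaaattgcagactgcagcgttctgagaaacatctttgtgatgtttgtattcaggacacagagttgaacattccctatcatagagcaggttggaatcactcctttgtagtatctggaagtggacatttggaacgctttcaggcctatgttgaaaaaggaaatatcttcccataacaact
Alphoid DNA of chromosome 1, chr1:123856264-123856529: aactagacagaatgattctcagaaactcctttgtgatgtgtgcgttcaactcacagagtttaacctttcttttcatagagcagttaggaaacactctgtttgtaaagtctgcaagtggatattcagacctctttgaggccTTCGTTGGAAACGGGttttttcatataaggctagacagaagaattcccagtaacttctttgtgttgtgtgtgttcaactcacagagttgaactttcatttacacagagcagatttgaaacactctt
26-bp satellite of chromosome 10, chr10:42079645-42079944: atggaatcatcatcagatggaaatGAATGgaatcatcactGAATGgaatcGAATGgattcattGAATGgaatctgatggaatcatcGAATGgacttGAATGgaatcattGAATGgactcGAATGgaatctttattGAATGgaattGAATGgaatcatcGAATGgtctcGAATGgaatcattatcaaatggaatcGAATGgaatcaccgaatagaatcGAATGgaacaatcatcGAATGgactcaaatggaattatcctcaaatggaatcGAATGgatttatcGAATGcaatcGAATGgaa
68-bp satellite of a contig of chromosome 14, chr14_GL000225v1_random:99204-99503: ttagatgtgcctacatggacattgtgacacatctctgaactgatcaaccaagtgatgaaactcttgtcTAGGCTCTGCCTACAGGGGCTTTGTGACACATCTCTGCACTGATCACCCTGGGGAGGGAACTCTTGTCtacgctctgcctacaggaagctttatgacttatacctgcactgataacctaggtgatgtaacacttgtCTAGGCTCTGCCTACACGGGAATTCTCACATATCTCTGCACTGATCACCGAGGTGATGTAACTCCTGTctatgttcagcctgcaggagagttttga
18S rRNA gene of chromosome 21, chr21:8209988-8210282: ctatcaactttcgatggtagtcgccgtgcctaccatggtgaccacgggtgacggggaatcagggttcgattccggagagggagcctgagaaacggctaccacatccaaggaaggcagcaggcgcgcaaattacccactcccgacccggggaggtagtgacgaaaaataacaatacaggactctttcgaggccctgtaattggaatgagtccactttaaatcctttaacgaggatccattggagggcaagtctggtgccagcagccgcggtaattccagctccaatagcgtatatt
Peak of no repeat group on chromosome 1, chr1:91387248-91387517: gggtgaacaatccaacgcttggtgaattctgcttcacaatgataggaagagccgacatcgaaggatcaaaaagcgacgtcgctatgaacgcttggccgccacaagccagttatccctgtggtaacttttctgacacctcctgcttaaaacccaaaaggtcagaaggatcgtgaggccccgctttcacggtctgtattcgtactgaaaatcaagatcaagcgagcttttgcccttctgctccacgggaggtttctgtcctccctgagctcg

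The last of these sequences fell in no repeat group, yet all 270 of its bases were identical to a stretch of the 28S rRNA gene, which has 8 copies in the reference, under the minimum of 10 that counted as repeated here. It was 1 of 2 input peaks outside the ribosomal arrays with such a match. The other, of 479 bp on chromosome 21, matched the 18S gene at 99.8% identity. Both were held by all 9 ChIP lists.

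Input peaks were narrow, with a median width of 249 bp, quartiles of 219 and 317 bp and a range from 199 to 3050 bp, and 38 were wider than 1000 bp. None overlapped another, and together they covered 834128 bases. Chromosomes 1 to 22, X and Y held 2425 peaks, or 0.785 per Mb. A further 249 peaks lay on 84 unlocalized, unplaced or alternate sequences, at 2.06 per Mb, and 2 lay on mitochondrial DNA. Among chromosomes, 7 held the most peaks with 290, followed by 1 with 256 and 5 with 197, whereas 15 held 27 and Y held 14. Per Mb the highest densities were 2.25 on chromosome 19 and 1.82 on chromosome 7, and unplaced contigs reached 27.9 per Mb.

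**Figure D1:**
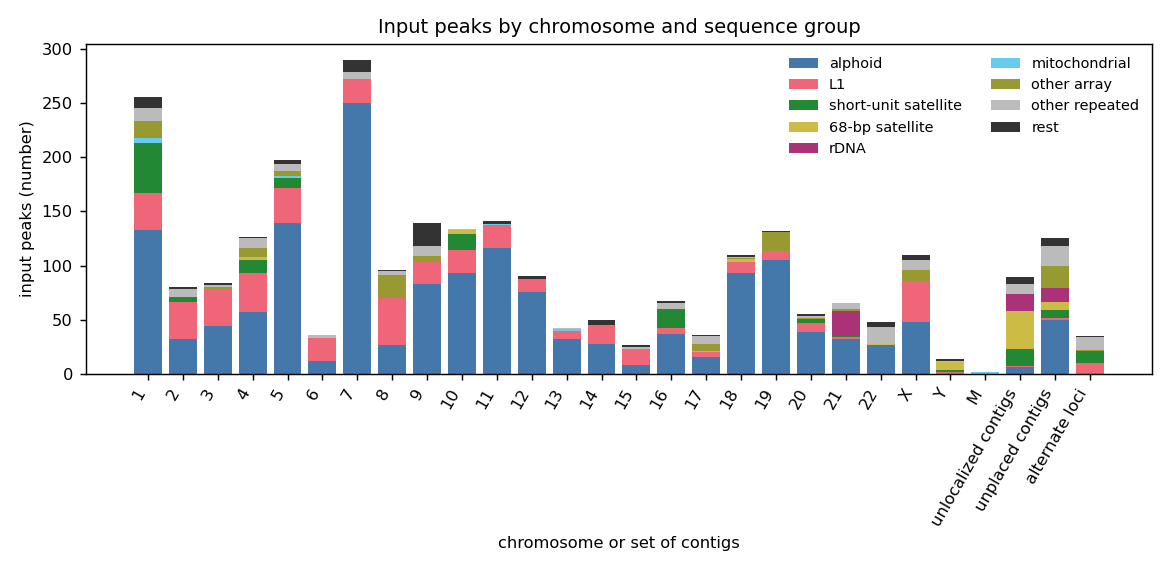
Number of input peaks (y axis) on each chromosome and set of contigs (x axis), with colours for the sequence groups. Chromosome 7 stands highest with 290 peaks, of which 250 are alphoid, and L1 peaks are spread over most chromosomes.

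Peaks lay in clusters. With peaks within 10 kb of each other joined, they formed 1721 loci, of which 1333 held a single peak and 71 held 5 or more. Those 71 loci contained 581 peaks (21.7%). The gap between neighbouring peaks on a chromosome had a median of 19269 bp, and 288 of 2567 gaps were shorter than 1 kb. Clustering differed between the groups of sequence, since the gap between alphoid peaks had a median of 15237 bp and that between L1 peaks one of 3.33e+06 bp.

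The largest locus, chr1:143184623-143267556, held 39 peaks in 82934 bp, all of them in short-unit satellite, and 35 of the 39 were held by all 9 ChIP lists. The next, chr9:60590950-60687653, held 31 alphoid peaks, and chr5:49599479-49646534 held 20 peaks, of which 17 were alphoid. A contig of chromosome 14 carried 2 loci of 17 peaks each, of which 16 and 17 peaks lay in the 68-bp satellite. None of the 3 loci on chromosomes 1, 9 and 5 overlapped an annotated gene, and the contig is not annotated in the gene set used. On X the locus chrX:62463237-62500437 held 15 alphoid peaks, 14 of them in all 9 lists.

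GC content averaged 40.1% (SD 5.14 over 2676 peaks), close to the 41.1% (SD 9.07) of 2932 windows of the median width set every 1 Mb along the chromosomes. The spread was narrower in the input peaks than in the windows, and the quartiles of the peaks lay at 37.7% and 40.9%. Individual groups departed from the mean. The 68-bp satellite averaged 47.2% and rDNA 50.3%, while 10 peaks of a 42-bp repeat averaged 23.8%.

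Copy number in the reference set the input peaks apart from those windows. Sequences of 24 bases that occur at least 10 times in hg38 covered 89.7% of the bases under input peaks and averaged 22.5% of a window. The median 24-mer of a peak occurred a median of 1711 times, against 1 time in the windows, and 1595 peaks (59.6%) reached 1000 occurrences, against 3.75% of the windows. In 1664 peaks (62.2%) every base lay in a repeated 24-mer. Peaks that shared at least 0.2 of their 24-mers were joined into families. There were 14 families of 10 or more peaks, which contained 2183 peaks, while 258 peaks shared this much with no other.

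Tandem repetition was measured as the share of bases identical to the base a fixed distance downstream, for distances of 2 to 1000 bp in the 2 kb around each peak. It reached 0.7 in 539 peaks (20.1%, 18.6 to 21.7), against 0.682% of the windows (0.417 to 1.05). Of the 539, 488 had a distance near a multiple of the length of an alphoid monomer. A looser minimum of 0.45, chosen after the values were seen because monomers within an array have diverged from each other, gave 1810 peaks (67.6%), against 88 of the 2932 windows, and 1549 of the 1810 lay near such a multiple.

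**Figure D2:**
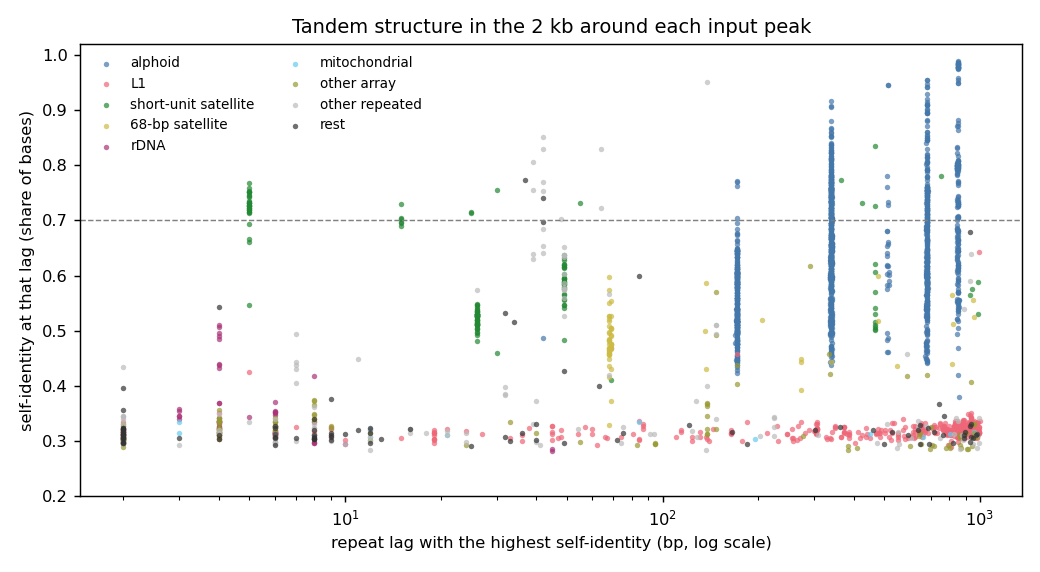
Each point is an input peak, placed by the distance at which the surrounding 2 kb is most like itself (x axis, bp, log scale) and the share of identical bases at that distance (y axis), with colours for the sequence groups and a dashed line at 0.7. Alphoid peaks stand in columns at multiples of the monomer length, short-unit satellites stand at 5, 26 and 49 bp, and L1 peaks lie near 0.3 with no common distance.

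By these features and by family each peak was put in a single group. Membership of a large alphoid or satellite family could place a peak in that group at any self-identity. Alphoid DNA made up 1583 peaks (59.2%, 57.3 to 61.03) and L1 elements 461 (17.2%, 15.8 to 18.7). Satellites with short units made up 146 peaks. The 68-bp satellite, a family by shared 24-mers, made up 60. The best distance was 68 bp, a unit length that beta satellite is known for, in 29 of them. Ribosomal DNA made up 52 and sequence that matched mitochondrial DNA 12. A further 117 peaks lay in other arrays, where at least 10% of the surrounding 24-mers recurred at 1 distance within 25 kb. In other repeated sequence, with at least 50% of the bases in repeated 24-mers, lay 147, and 98 lay in none of these. Self-identity away from multiples of the monomer placed no peak by itself, so tandem repeats of few copies could be among the 98.

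Alphoid peaks had a median width of 250 bp and a mean GC content of 38.9%. The CENP-B box was found on either strand in 1529 of the 1583 2-kb windows around them and inside 895 of the peaks. Of all input peaks 57.5% had the box within their 2 kb (55.6 to 59.4), against 2.18% of the windows along the chromosomes (1.69 to 2.78), and 33.6% had it inside the peak, against 1.13% of windows of the median width. None of the 461 L1 windows and none of the 146 windows of short-unit satellite held a CENP-B box. CATTC directly repeated, or its reverse complement, occurred 5 or more times within the 2 kb of 105 input peaks (3.92%), against 0.0682% of the windows.

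Most alphoid peaks fell into 3 large families by shared sequence, which is partly fixed, because membership of these families also placed a peak in the group. The distance at which the 24-mers of these peaks recurred was found for each chromosome. The largest family, 854 peaks mainly of chromosomes 7, 5, 1, 19, 10, 12, 3 and 16, recurred at 1022 bp in 245 of the 247 peaks of chromosome 7, or 5.98 monomers. On chromosomes 1, 5 and 19 of that family the commonest distance was 1020 bp, on 10 it was 1358 bp, on 12 it was 1359 bp and on 16 it was 1699 bp. The second family of 412 peaks recurred most often at 1364 bp on chromosomes 13, 14, 21 and 22, at 2035 bp on 18 and at 680 bp on 2 and 9. The third, of 200 peaks, recurred at 850 bp in all 116 peaks of chromosome 11 and at 2057 bp in 47 of the 48 peaks of X, or 4.97 and 12 monomers. Some chromosomes of a family thus shared their commonest distance and others did not. The CENP-B box stood in the windows of 99.4%, 99.8% and 98.5% of the 3 families.

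Nearly every input peak had a counterpart in the immunoprecipitated libraries. With an overlap of at least 1 bp, 2594 of the 2676 peaks (96.9%, 96.2 to 97.6) were held by 1 or more of the 9 ChIP lists, against 4.17% of the 250-bp tiles of the reference. For CTCF, the CT list held 1871 of them or 69.9% (68.1 to 71.7), against a background of 0.783% of tiles. The KD list held 2157 or 80.6% (79.1 to 82.1), against 0.872% of tiles. The OE list held 2406 or 89.9% (88.7 to 91.03), against 0.843% of tiles. The CTCF lists thus differed among themselves by more than the counting error, with CT lowest and OE highest, and their peaks were called at unlike p thresholds according to the labels, 0.005 for OE against 0.0025 for the other two. The part of the threshold in the difference was not tested.

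Each of the 6 histone lists held most of the input peaks as well. H3K4me3, the mark of active promoters, held 2232 input peaks in CT (83.4%, 81.9 to 84.8) and 2170 in KD (81.1%, 79.6 to 82.6), against 2.37% and 2.46% of tiles. H3K9me3, the mark of silenced repeats, held 1902 in CT (71.1%, 69.3 to 72.8) and 1961 in KD (73.3%, 71.6 to 74.95), against 0.215% and 0.128%. H3K27me3, the mark of Polycomb repression, held 2219 in CT (82.9%, 81.4 to 84.3) and 2062 in KD (77.1%, 75.4 to 78.6), against 0.0954% and 0.0758%. The sources disagree on which antibody was used for H3K9me3 and which for H3K27me3, and each list goes here by the mark in its title.

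All 9 lists held 1367 of the peaks (51.1%, 49.2 to 53.0), 259 of the 512 possible combinations of lists occurred, and 82 peaks (3.06%, 2.44 to 3.79) were held by none. The next most common combination after all 9 and none was every list but CTCF CT, with 80 peaks. Over all input peaks, those held by all 9 lists had more copied sequence than those held by few. The median 24-mer occurred 7.5 times in the 82 peaks of no list, 716.5 times in the 120 peaks of 4 lists and 2322 times in the 1367 peaks of all 9. Within alphoid DNA the corresponding medians were 1249.5 for the peaks of 4 lists or fewer and 2294.5 for those of all 9, and within L1 they were 2888.5 and 6279. In other repeated sequence the order was reversed, at 13 and 10 copies, and so it was in the peaks of no repeat group, at 3 and 2. Median widths rose between the same 2 sets, from 233 to 263 bp in alphoid DNA and from 207.5 to 226 bp in L1.

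The lists met the input peaks at the same place and with a similar width. Where a list held an input peak, the centre of its peak lay a median of 12.5 to 18.5 bp from the centre of the input peak across the 9 lists, and its width was 0.956 to 1.16 times that of the input peak. Windows of the same width shifted by 2 kb to either side, 4801 in all and free of input peaks, were held by CTCF CT in 3.58% and by H3K9me3 CT in 2.50%, and by any list in 11.6%, against 96.9% at the input peaks. Around L1 peaks the shifted windows were held by CTCF CT in 0.769% and by H3K9me3 KD in 0.110% of 910 windows.

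**Figure D3:**
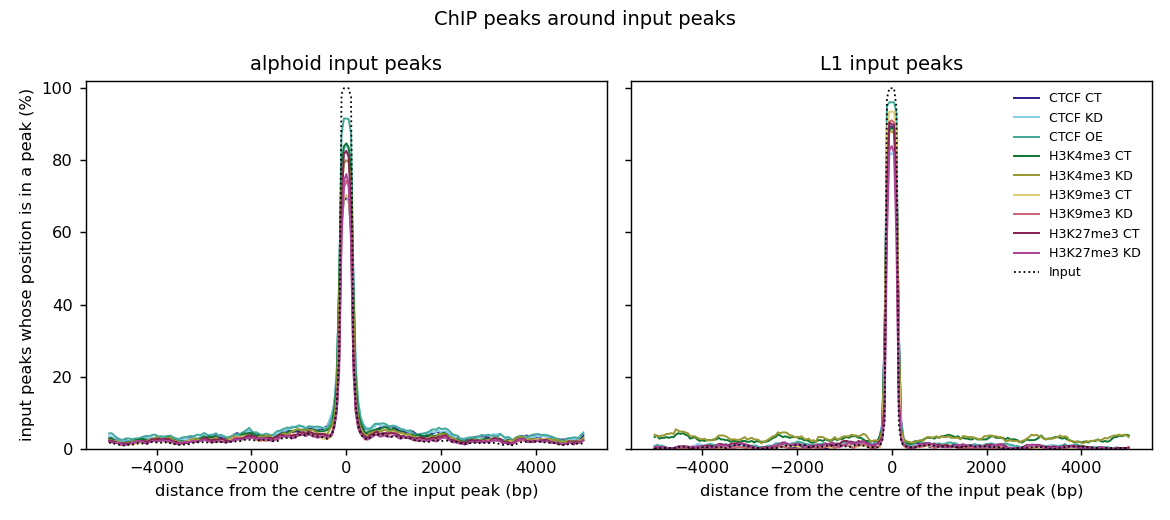
Share of input peaks (y axis, %) whose position at each distance from the centre (x axis, bp) lies in a peak of each list, for alphoid peaks on the left and L1 peaks on the right, with the input list dotted. In both groups each of the 9 lists has its maximum within 50 bp of the centre and lies far lower on both sides.

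Seen from the other side, 2.87% of the H3K4me3 peaks in CT and 2.62% of those in KD met an input peak, the lowest shares of the 9 lists. The share was 4.33% to 5.06% in the CTCF lists, 13.5% and 23.9% in H3K9me3 CT and KD, and 37.4% and 43.2% in H3K27me3 CT and KD. These shares went with list size. From 1860 to 2391 peaks of each list met the input, while the lists held 4804 to 81932 peaks. For H3K9me3 it was 1957 of 14546 peaks in CT and 1999 of 8356 in KD. Peaks of the 9 lists that met the input had a mean GC content of 39.8% to 40.5%, whereas the H3K4me3 KD peaks elsewhere averaged 49.5% and the CTCF KD peaks elsewhere 44.4%. The gap was small for H3K9me3, whose peaks elsewhere averaged 40.1% in CT and 40.3% in KD, and for H3K27me3 in KD, at 41.1%.

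Sequence groups differed in how many lists held them. Among the 1583 alphoid peaks, the CT list of CTCF held 71.8% (69.5 to 73.97), the KD list 85.1% (83.2 to 86.8) and the OE list 92.7% (91.3 to 93.9). Among the 461 L1 peaks the CTCF shares were 89.4% (86.2 to 92.03), 82% (78.2 to 85.4) and 96.3% (94.2 to 97.8). The KD share was above the CT share in alphoid DNA and below it in L1, while OE held the most of both. With 1 library per condition, the spread between replicates of these shares is unknown. At the level of single peaks, 55 L1 peaks were held by CTCF in CT but not KD and 21 in KD but not CT. Of the input peaks as a whole, 140 and 426 were.

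H3K9me3 held 93.9% (91.3 to 95.9) of the L1 peaks in CT and 91.8% (88.9 to 94.1) in KD, against 74.2% (71.9 to 76.3) and 77.2% (75.05 to 79.2) of the alphoid peaks. The short-unit satellites were held by H3K27me3 in 93.2% and 95.2%, and all 60 peaks of the 68-bp satellite were held by both H3K4me3 lists. At the other end stood the 98 peaks of no repeat group. CTCF held 16.3% (9.63 to 25.2) of them in CT and H3K9me3 held 8.16% (3.59 to 15.4), and 38 of the 98 were held by no list, which is 38 of the 82 such peaks. Other arrays stood between, with 27.4% (19.5 to 36.4) for CTCF CT and 21.4% (14.3 to 29.9) for H3K9me3 CT but 75.2% (66.4 to 82.7) for H3K4me3 CT.

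**Figure D4:**
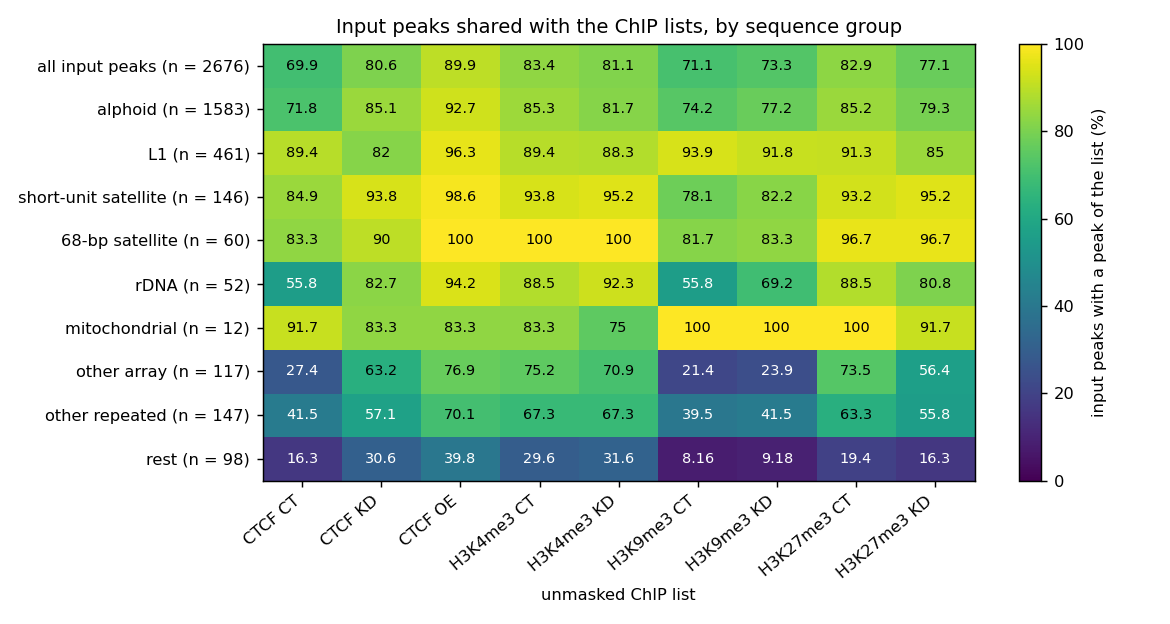
Share of input peaks (colour and printed value, %) held by each of the 9 unmasked ChIP lists (columns) in all input peaks and in each sequence group (rows). Alphoid, L1 and satellite rows lie above 70% in every list, and the bottom row of peaks in no repeat group lies below 40%.

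The alphoid arrays of single chromosomes differed as well. Over the 20 chromosomes with at least 25 alphoid peaks, the share held by CTCF in CT ran from 48.1% on chromosome 8 and 53.1% on 2 to 93.8% on X. H3K4me3 in KD held 50.5% on chromosome 10, where the same mark in CT held 67.7%, and 93.8% on X. Chromosome 7, with 250 alphoid peaks, stood at 64% for CTCF CT, 85.6% for KD and 92.8% for OE. All 9 lists held 39 of the 48 alphoid peaks of X (81.2%) and 28 of the 93 of chromosome 10 (30.1%).

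The 461 L1 peaks lay in 443 loci, on 23 of the 24 chromosomes and on contigs, so that they were scattered where the alphoid peaks were clustered. They were placed on an L1 element with both reading frames intact, ORF1, whose protein binds RNA, and ORF2, which encodes the endonuclease and reverse transcriptase. Such a pair of frames was found 146 times in the reference. Over the matched stretch of each peak, which was the whole peak in 83.3% of them, identity to the element had a median of 97.6%, with quartiles of 96.7% and 98.3%. Counting from the first base of ORF1, 40 peaks had their centre in ORF1, 122 in the first 0.5 of ORF2 and 285 (61.8%) in the rest of it, against 9 ahead of ORF1.

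**Figure D5:**
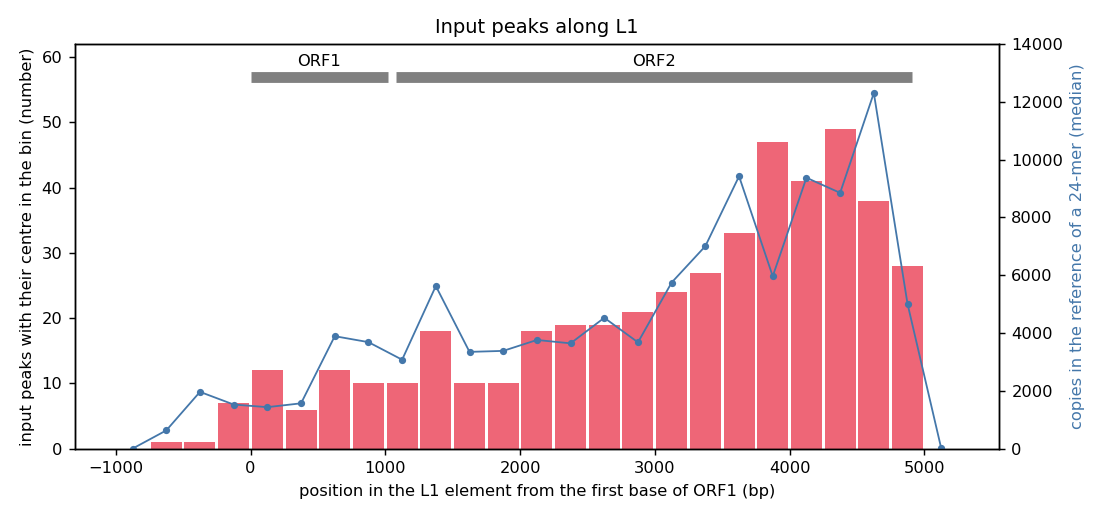
Number of L1 input peaks (bars, left axis) in bins of 250 bp along the element, counted from the first base of ORF1 (x axis), with the median number of copies in the reference of the 24-mers of each bin (line, right axis). Both are higher towards the end of ORF2 than at ORF1, with 49 peaks in the fullest bin, from 4250 to 4500 bp.

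Towards the end of ORF2 both the number of peaks and the number of copies in the reference were higher than at ORF1. The bins from 3500 to 4750 bp, the last part of ORF2, held 33, 47, 41, 49 and 38 peaks, where the median 24-mer occurred 9425, 5967.5, 9374, 8851 and 12305 times, while bins from 0 to 500 bp held 12 and 6 peaks at 1440 and 1572.5 copies. The next bins of ORF1, from 500 to 1000 bp, had more copies, 3894.5 and 3688.5, with 12 and 10 peaks. Within L1, CTCF in CT held 99 of the 122 peaks in the first 0.5 of ORF2 (81.1%) and 265 of the 285 in the rest (92.98%). H3K4me3 in KD held 75.4% and 94.4% of the same parts. Of the 40 peaks in ORF1, the CT, KD and OE lists of CTCF held 37, 26 and 38.

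Ribosomal DNA held 52 input peaks in 8 copies of the unit, on chromosome 21 and on contigs of chromosome 22 and of no known place. In the 18S and 28S genes nearly all recurred at the same positions of the unit. Counted from the first base of 18S, 6 copies had a peak centred at 491 to 512 bp and all 8 had another centred at 1061 to 1340 bp. In the 28S gene 5 copies each had peaks centred at 5945 to 6080, 8026 to 8077 and 8778 to 8813 bp. All 6 peaks at the first position were held by all 9 lists. Of the 16 peaks in the 28S gene, the CT, KD and OE lists of CTCF held 8, 15 and 16. The spacer between units held 6 peaks ahead of the 45S start, of which 5 were in all 9 lists, and 16 after its end. Those 16 were held by CTCF in 2, 9 and 13 cases and by H3K27me3 in 10 and 13, and none of them was in all 9 lists.

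Mitochondrial DNA carried 2 wide peaks, of 2859 and 2646 bp, over both ribosomal RNA genes, MT-RNR1 and MT-RNR2, and over MT-CYB, MT-ND5 and MT-ND6. A further 10 peaks lay at nuclear copies of it. The nuclear copy at chr1:629111-634198 held 5 of them, in the pseudogenes MTND1P23, MTND2P28, MTCO1P12, MTCO2P12 and MTATP6P1, and 4 of the 5 were held by all 9 lists. Of the 12 peaks 9 were held by all 9 lists.

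Few input peaks lay in genes. On the chromosomes that GENCODE annotates, 439 of 2427 peaks (18.1%, 16.6 to 19.7) overlapped a gene of any type, whereas genes hold 60.5% of the known bases of chromosomes 1 to 22, X and Y. Only 76 of the 439 touched an exon. None of 1527 alphoid peaks overlapped a gene, which allows a share of up to 0.196% with 3 peaks as the limit of a count of 0, and 0.241% by the Clopper-Pearson interval. Of 448 L1 peaks 248 (55.4%, 50.6 to 60.02) overlapped a gene, 242 of them in introns only. The 1988 peaks outside genes lay a median of 882530 bp from the nearest one, and 1577 (79.3%) were more than 100 kb away.

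Among the 401 genes with an input peak, 3 of the 4 with the most were long non-coding RNAs in arrays. ENSG00000280441 on chromosome 21, which lies in the ribosomal array, held 13. LINC00665 and ENSG00000267053, overlapping genes on opposite strands of chr19:36257662-36331770, shared 9 peaks in a repeat that recurs at 2535 bp. The 15 peaks of that repeat family averaged 59.7% GC, and CTCF held 1 of them in CT, 9 in KD and 12 in OE. Over all 117 peaks of other arrays, CTCF held 27.4% in CT, 63.2% in KD and 76.9% in OE. Of the same 15 peaks H3K4me3 held 10 and 12 in CT and KD, and H3K9me3 held 1 and 2. ENSG00000267605 on the same chromosome held 7 input peaks. CCDC200, a protein-coding gene of chromosome 17, held 9 peaks, of which 5 were in other repeated sequence.

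DANT2, a non-coding RNA gene at the macrosatellite DXZ4 of the X chromosome, held 7 peaks within 10878 bp, with a mean GC content of 61.7%. All 7 were held by H3K27me3 in CT and 5 in KD, 5 by CTCF in OE but 1 each in CT and KD. The 7 lay in other repeated sequence. Over all 147 peaks of that group CTCF held 41.5% in CT, 57.1% in KD and 70.1% in OE. H3K27me3 held 63.3% of the 147 in CT and 55.8% in KD. At 5S ribosomal RNA genes of chromosome 1, RNA5S1, RNA5S2 and RNA5S17 each held a peak, and of these 3 CTCF held none in CT, 1 in KD and 2 in OE. Families of chromosome 1 that recur at 2241 bp, the spacing of RNA5S1 and RNA5S2, were counted whether or not their peaks touched a gene. In a family of 4 peaks CTCF held 0 in CT, 1 in KD and 2 in OE. In another of 3 peaks it held 2, 3 and 3. In ENSG00000283360, where the sequence recurs at 7381 bp, none of the 6 peaks was held by any H3K4me3 or H3K9me3 list.

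Genes of multicopy families on the X chromosome and on chromosomes 4 and 8 carried further peaks. A locus of 16 peaks in 62940 bp spanned REXO1L2P, REXO1L4P, REXO1L5P and REXO1L9P, pseudogenes related to an RNA exonuclease gene. CTCF held 4 of the 16 in CT, 11 in KD and 16 in OE, H3K9me3 held none in CT and 5 in KD, and H3K27me3 held 16 in CT and 12 in KD. Only 11 of the 16 lay in other arrays, so the shares of that group are a rough measure for this locus. Over all 117 peaks of other arrays the CTCF shares were 27.4%, 63.2% and 76.9%. Those of H3K9me3 were 21.4% in CT and 23.9% in KD, and those of H3K27me3 73.5% and 56.4%. GAGE2A and CT45A3, members of cancer-testis antigen families, held 2 peaks each, all 4 of them without a CTCF peak in CT and without an H3K9me3 peak. DUX4, a transcription factor gene of the subtelomere of chromosome 4, held 3 peaks of the 68-bp satellite, each of which was held by all 9 lists. ENSG00000250519, a non-coding RNA gene of chromosome 11, held 5 peaks in L1 sequence, of which CTCF held 1 in CT, 5 in KD and 3 in OE and H3K9me3 held none. These 5 were unlike their group. Over all 461 L1 peaks CTCF held 89.4% in CT, 82% in KD and 96.3% in OE, and H3K9me3 93.9% in CT and 91.8% in KD.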

How the data were processed

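ChIP-seq reads of HEK-293T libraries were trimmed, filtered and mapped end-to-end with Bowtie2 to unmasked hg38 by the authors, who called peaks with MACS2. The versions and the use of the input as a MACS2 control are not given in the sources used here. The labels state a p threshold of 0.001 for the input and the methods 0.005, and the text speaks both of default mapping options and of keeping uniquely mapped reads. The deposited lists hold positions in bp with no score, fold or coverage, so the depth behind a peak is unknown. Starts were read as counted from 0 and are printed counted from 1.

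The input list was compared with the 9 unmasked ChIP lists by overlap of at least 1 bp. The background was the share of 250-bp tiles of the reference that a list overlaps. Sequence, 24-mer copies, tandem distances and families were computed from hg38 (Python 3.11.15, numpy 2.4.6, pysam 0.24.0, blastn 2.17.0). Of these only the tandem distances were tested on simulated repeats. Genes came from GENCODE 44. The printed sequences are those of hg38. The loci and genes named are the 20 with the most input peaks and the members of a list of multicopy families, and 1 sequence was chosen for each class with at least 20 peaks, of which some, and 1 gene, are not reported here. Other sequences, loci and genes named (REXO1L among them), and the sequence groups, were chosen after their values were seen. Members and lists were chosen with earlier results of these data known. Alternatives are given in the closing section. The 6 lists of exclusive CTCF peaks, each a subset of an unmasked list, were not used.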

Additional observations from a re-analysis of the deposited data

Results flagged for a closer look

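Peaks that the authors called on repeat-masked reads were also found at input peaks, in lists that the comparisons above do not use. They held 144 of the 2676 input peaks in CT (5.38%, 4.56 to 6.30), 166 in KD (6.20%, 5.32 to 7.18) and 210 in OE (7.85%, 6.86 to 8.93), against 0.441%, 0.398% and 0.335% of the 250-bp tiles of the reference. None was alphoid and 1 was in L1, in KD, while short-unit satellites held 71, 73 and 78 of them and ribosomal DNA 10, 8 and 16. The authors mapped these reads to hg38 with its repeats masked. A lack of peaks in masked sequence was thus fixed beforehand, and these counts do not compare the sequence groups.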

How the results depend on the processing

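No paired analysis was possible because each group has 1 library. Shares held by a ChIP list moved beyond their counting interval as follows. With at least 0.5 of the input peak covered they were, for CTCF CT 67.5%, CTCF OE 88.6%, H3K4me3 KD 79.4%, H3K9me3 CT 67.1%, H3K9me3 KD 70.3%, H3K27me3 CT 80.5% and H3K27me3 KD 73.7%. With loci within 10 kb counted once they were, for CTCF CT 76.5%, CTCF KD 82.4%, H3K9me3 CT 78.2%, H3K9me3 KD 78.6% and any list 96.05%. Among peaks at least as wide as the median they were, for CTCF CT 73.5%, CTCF KD 86.1%, CTCF OE 92.6%, H3K4me3 CT 87.3%, H3K4me3 KD 85.5%, H3K27me3 CT 86.5%, H3K27me3 KD 82.4% and any list 98.1%. On chromosomes 1 to 22, X and Y alone none of the 10 moved. The share of peaks in tandem repeats was 39.5% at a self-identity of 0.6, 5.31% at 0.8, 12.9% in 1-kb windows and 67.6% at 0.45, a value chosen after the data were seen. Protein-coding genes alone held 8.98% of the peaks. Joining peaks within 100 kb gave 815 loci. Bases in 24-mers that occur at least 100 times made up 73.01%, and those of chromosomes 1 to 22, X and Y 91.7%. The remaining 26 values lay within their interval, spread or 1.5 times the count. The cause was not tested beyond what each alternative leaves out by its construction. Peaks carry no depth, so nothing here speaks to the strength of enrichment.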

Other observations

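Among all input peaks, 6 peaks matched 7SL RNA, the RNA of the signal recognition particle from which Alu elements derive, over at least 20% of their length. Pairs of the telomeric repeat were found in the surroundings of none of the 2676 peaks at 5 or more, against 1 of 2932 windows along the chromosomes. The 10 peaks of the 42-bp repeat, of 23.8% GC and a median width of 733.5 bp, were held by each CTCF, H3K9me3 and H3K27me3 list in all 10 cases, and by H3K4me3 in 10 in CT and 8 in KD.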
